A study of Mus musculus with 3 samples.

Results

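The genes described here carry the insulin signal from its receptor through PI3-kinase and AKT to FOXO factors, GSK3 and mTOR. They were chosen by name as 33 genes of the pathway, and all 33 were found among the 49492 entries of the deposited liver tables. Liver RNA of CD-1 mice, which are outbred, was sequenced in 3 libraries, 1 per group. The control library came from mice given phosphate-buffered saline (PBS). The other 2 came from mice that took a sonicated suspension of zinc oxide nanoparticles (ZnO NPs) orally, 25 mg per kg of body weight each day, over 8 or 12 weeks. The labels give no age, sex, feeding state or hour of collection, and no number of animals per library, and the hepatic insulin signal depends on feeding. They do not say at which week the control was taken, so differences in age or time within a comparison cannot be told apart from the treatment. With 1 library per group there is no spread between samples, so no p-value is given and every difference is one between libraries. The study's title names insulin resistance induced by the particles, and these genes are the machinery through which the liver senses insulin.

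In liver, insulin binds its receptor, a tyrosine kinase that phosphorylates the docking proteins Irs1 and Irs2. These recruit PI3-kinase, whose lipid product brings Pdpk1 and AKT to the membrane. AKT then keeps FOXO factors out of the nucleus, which lowers glucose production, inhibits GSK3, which allows glycogen synthesis, and relieves mTOR complex 1 from its brake, the Tsc1 and Tsc2 complex, which allows protein and lipid synthesis. The pathway is controlled chiefly by phosphorylation, which RNA levels do not show.

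The control library held 13614979 counts, the 8-week library 14258770 and the 12-week library 13263211, and 3 counts correspond to 0.209 to 0.227 CPM (counts scaled to library size), the unit of all levels. A difference is a log2 ratio of CPM + 1 between 2 libraries, and a gene was called at 2-fold, a rule of size, among the 14585 genes with at least 1 CPM in 1 library. Intervals are exact 95% intervals for the count ratio, with no CPM added, and cover counting error only. Of the 33 genes 32 passed that filter. The exception was Socs1, with 8, 8 and 7 counts in the control, 8-week and 12-week libraries. Hepatocyte markers summed to 41600, 51600 and 53600 CPM in the same order, and to 19800, 19800 and 22500 CPM without albumin (Alb). Macrophage markers summed to 120.0, 494 and 380.0 CPM, with 0 of the 18 macrophage markers at 0 in any library. Skeletal muscle markers summed to 2.36, 202 and 1.74 CPM, and thus stood apart in the 8-week library, where they made up 0.0203% of counts. Their part in the 8-week values was not tested.

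The pathway as a whole lay close to the control. The median log2 ratio of the 32 genes was -0.06 at 8 weeks and 0.02 at 12 weeks, beside -0.02 and -0.01 over all genes. At 2-fold, 1 of 32 was higher at 8 weeks, Inpp5d, where 4.15% of all genes were called higher. Inpp5d, at 0.958 CPM in the control, passed the filter only through the treated libraries. At 12 weeks 1 of 32 was higher, Socs3, where 3.11% of all genes were. None of the 32 was 2-fold lower at 8 weeks or at 12 weeks, where 2.10% and 1.34% of all genes were. Both counts are near the background, and the size of the typical difference was near it too. The median distance from 0 was 0.21 for these genes and 0.26 for all genes at 8 weeks, and 0.20 and 0.24 at 12 weeks.

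A wider rule of 1.5-fold took in 5 of the 32 genes at each time. At 8 weeks these were Pik3r1, Foxo1, Foxo3 and Inpp5d, which were higher, and Grb14, which was lower, beside 18.6% of all genes in either direction, 10.6% higher and 7.97% lower. At 12 weeks they were Foxo1, Ptpn1, Grb10 and Socs3, which were higher, and again Grb14, which was lower, beside 15.5% of all genes, 9.28% higher and 6.22% lower. The treated libraries were nearer to each other. Between them 1 of 32 genes was 2-fold higher at 12 weeks, Socs3, and 0 lower, beside 1.28% and 1.23% of all genes. At 1.5-fold 2 were higher, Socs3 and Ptpn1, and 1 lower, Inpp5d, beside 5.41% and 4.73%. Since low counts scatter more, the 1.5-fold rule against the control was also applied to the 29 members with a mean of at least 10 CPM. It took in 4 of 29 at each time, beside 14.2% and 11.7% of genes at that level. Both treated libraries were set against the same control library, so the genes named at both times are not independent observations.

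Counting error alone is small for most of these genes. At 8 weeks the interval lay wholly on one side of no difference for 19 of 32 genes, where it did so for 47.8% of all genes, and at 12 weeks for 16 of 32, where it did so for 43.4%. Between the 2 treated libraries it did so for 14 of 32 and for 38.2% of all genes. With so many genes of every kind beyond counting error, the interval alone sets no gene apart.

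**Figure D1:**
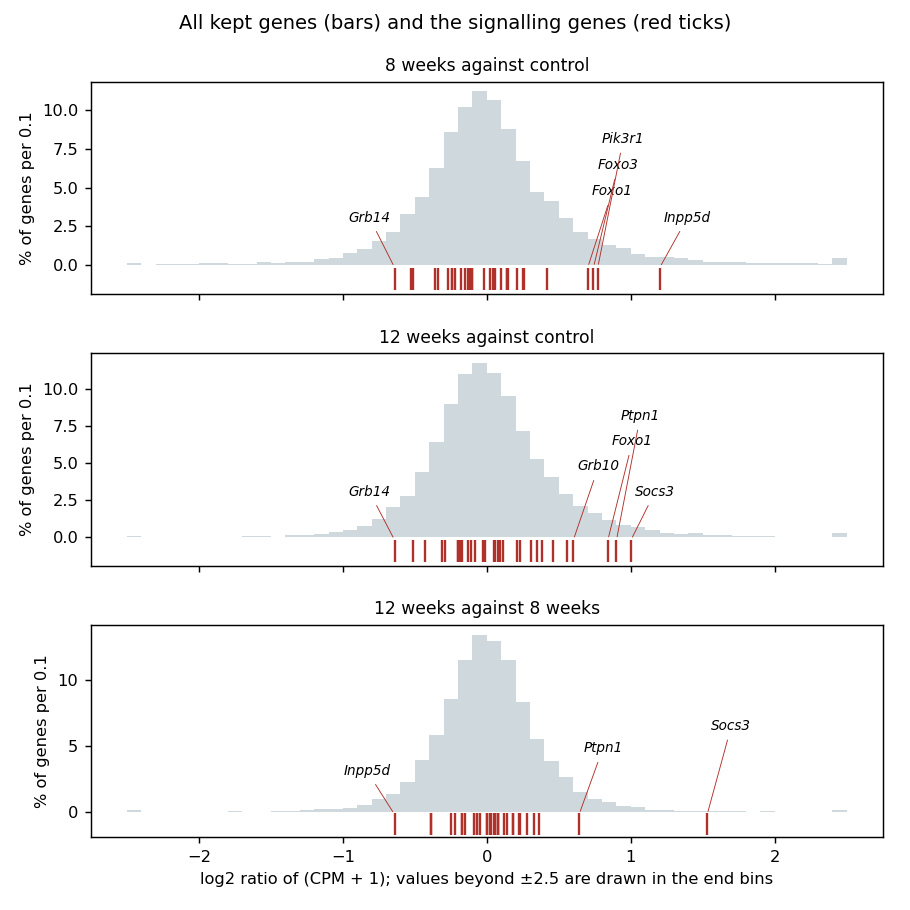
Log2 ratio of CPM + 1 (x axis) for all 14585 kept genes (bars, percent of genes per 0.1) and for the 32 kept signalling genes (red ticks below the bars), in the 3 comparisons of libraries. Named genes are those at least 1.5-fold apart, and the ticks lie mainly under the centre of each distribution.

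Levels can be compared between genes only per length of gene model. By mean CPM per kilobase over the 3 libraries, the highest of the 33 were Gsk3a (25.8), the insulin receptor Insr (18.7), the translation repressor Eif4ebp1 (17.5) and the PI3-kinase subunit Pik3r1 (16.0), and 81.6% or more of the 14585 genes lay below each of them. The lowest were Inpp5d (0.278), Igf1r (0.367), Socs1 (0.458) and Grb10 (0.49), each under 1 CPM per kilobase. The other 25 lay between 1.86 for Rptor and 11.0 for Grb2. The order in neighbouring places, such as Akt1 (9.30) and Akt2 (9.15), cannot be told from the spread of 3 unlike libraries.

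**Figure D2:**
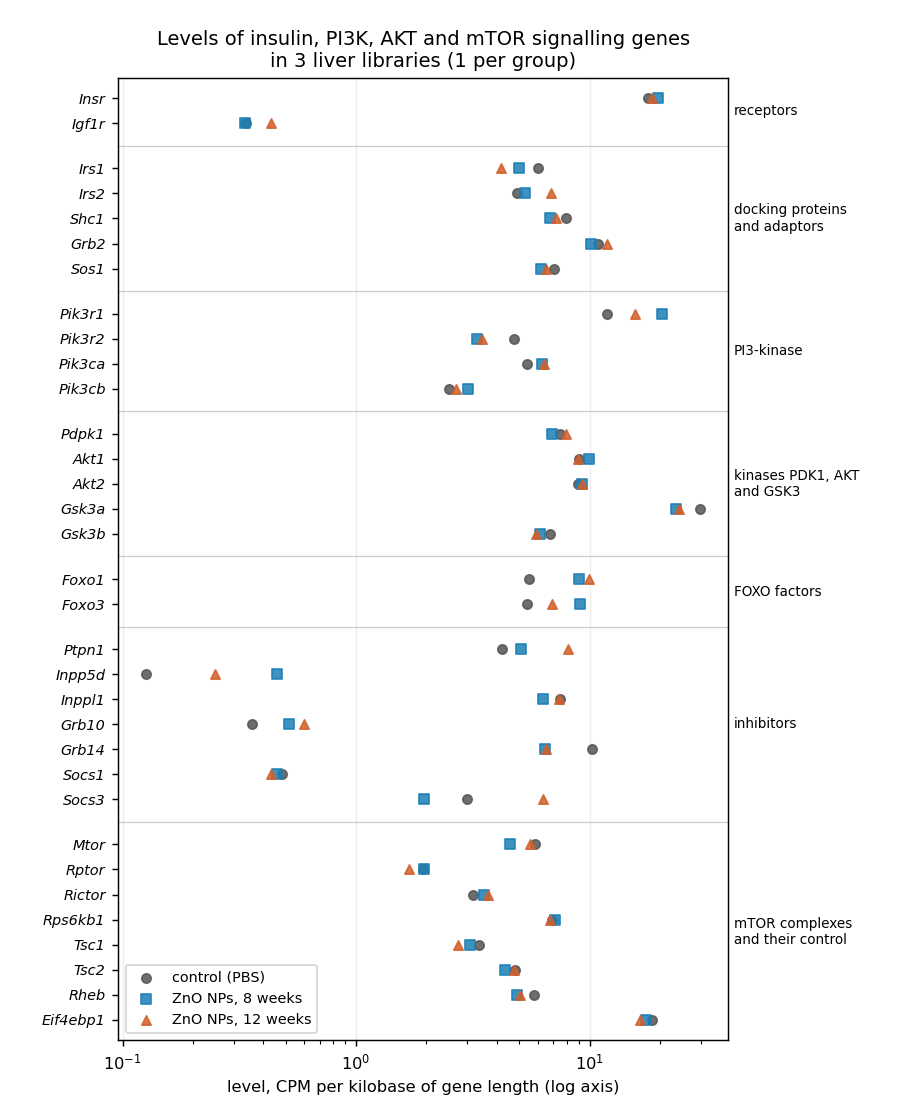
Level of each of the 33 genes in CPM per kilobase (x axis, log scale) in the control, 8-week and 12-week libraries (1 point per library), grouped by role. For most genes the 3 points nearly coincide, and the widest relative gaps are at Inpp5d and Socs3.

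Neither of the 2 receptors reached 1.5-fold. Insr, the insulin receptor, had 245, 270 and 254 CPM in the control, 8-week and 12-week libraries. Its log2 ratio was 0.14 at 8 weeks (interval 0.07 to 0.21) and 0.05 at 12 weeks (-0.02 to 0.12), the narrowest intervals of the 33 genes because it had 3328 or more counts in each library. Igf1r, the receptor for insulin-like growth factor, which adult hepatocytes hardly express, had 5.67, 5.58 and 7.25 CPM. With 77, 80 and 96 counts its intervals were wide. Its log2 ratios were -0.02 at 8 weeks (-0.49 to 0.45) and 0.31 at 12 weeks (-0.09 to 0.80). It made up 1.86%, 1.66% and 2.28% of the 2 receptors' summed level per length.

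The docking proteins went in opposite directions. Irs1 had 55.1, 45.6 and 38.4 CPM in the control, 8-week and 12-week libraries, with log2 ratios of -0.27 (interval -0.43 to -0.12) and -0.51 (-0.69 to -0.36). Irs2, the docking protein that fasting raises in liver through FOXO factors, had 31.0, 33.4 and 43.0 CPM, with 0.10 (-0.08 to 0.30) and 0.46 (0.29 to 0.66). Neither reached 1.5-fold, and at 12 weeks 19.6% and 23.1% of all genes stood at least as far from 0 as Irs1 and Irs2 did. Their balance takes both differences together. The intervals of its shares cover counting error only, and how far gene pairs in general moved was not computed. Per length, Irs1 was 55.2% of the pair in the control (interval 52.2% to 58.2%), 48.6% at 8 weeks (45.6% to 51.6%) and 38.1% at 12 weeks (35.3% to 41.0%). The ratio of Irs2 to Irs1 went from 0.812 in the control to 1.06 and 1.62, so that Irs1 was the more abundant of the 2 in the control library and Irs2 at 12 weeks.

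Irs1 lies at chr1:82233101-82291416 on the minus strand (mm10). There 30.9% of its exon bases are shared with Gm9747, a gene model on the plus strand, which had 427, 325 and 266 counts. Without known use of strand the reads of the 2 cannot be told apart, but their sum gave log2 ratios of -0.34 and -0.56, near those of Irs1. Irs2, at chr8:10984681-11008458 on the minus strand, shares 2.56% of its bases with 9530052E02Rik, which had 15 counts or fewer in each library.

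The sequences upstream of Irs1 and Irs2 are shown because the balance of this pair differed most among the 10 pairs compared below. Both also hold the same 2 motifs. Both are the 250 bases before the RefSeq start (GRCm38.p6, minus strand, written 5′ to 3′). The deposited gene models start downstream of these windows, Irs1 at 82291416 and Irs2, with the wider gap, at 11008458. Capitals mark the E-box CACGTG and TGTTTTG, the reverse complement of CAAAACA, the core of an insulin response element.

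Irs1, chr1:82291440-82291689: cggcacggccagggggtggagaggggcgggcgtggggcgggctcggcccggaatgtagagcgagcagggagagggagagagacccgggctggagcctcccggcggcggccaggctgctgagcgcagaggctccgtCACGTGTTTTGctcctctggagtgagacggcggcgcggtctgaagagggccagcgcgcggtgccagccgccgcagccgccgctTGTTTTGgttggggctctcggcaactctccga

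Irs2, chr8:11008930-11009179: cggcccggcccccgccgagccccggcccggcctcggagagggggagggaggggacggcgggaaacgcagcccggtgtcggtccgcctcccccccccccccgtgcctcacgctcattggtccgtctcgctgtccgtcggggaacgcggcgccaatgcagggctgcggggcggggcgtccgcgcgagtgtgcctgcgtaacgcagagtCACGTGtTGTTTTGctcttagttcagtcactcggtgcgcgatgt

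Counted back from the RefSeq start, the E-box of Irs1 spans bases 115 to 110 and overlaps the first of its insulin response cores, at 111 to 105. The other core lies at 32 to 26. In Irs2 the E-box is at 44 to 39 and the core at 37 to 31. Searched on both strands, 5.56% of 32851 RefSeq promoters held the insulin response core and 6.02% the E-box. Among 41 promoters of 31 of the signalling genes, the core was found for these 2 genes and the E-box for these 2 and Rheb. A match describes the letters and shows no binding.

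Among the adaptors that lead to RAS, the 3 genes lay within 0.25 of the control on the log2 scale. So did 49.0% of all genes at 8 weeks and 52.1% at 12 weeks, and 55.0% and 57.8% of genes with a mean of at least 10 CPM. Shc1, which binds the activated receptor, had 44.7, 38.2 and 40.6 CPM. Grb2, the adaptor that joins it to Sos1, had 31.9, 29.3 and 34.6 CPM, and the RAS exchange factor Sos1 had 62.8, 55.1 and 58.1 CPM. All 3 were lowest at 8 weeks.

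PI3-kinase pairs a regulatory with a catalytic subunit, and the regulatory genes differed most. Pik3r1, the main regulatory subunit gene (chr13:101680563-101768217, minus strand), had 120.0 CPM in the control library, 207 after 8 weeks and 157 after 12. Its log2 ratio was 0.77 at 8 weeks (interval 0.69 to 0.87), where 11.1% of all genes stood at least as far from 0, and 0.38 at 12 weeks (0.29 to 0.48). Pik3r2, the other regulatory gene, had 19.9, 13.7 and 14.5 CPM, with ratios of -0.51 (-0.81 to -0.27) and -0.43 (-0.73 to -0.18). Pik3r1 was thus higher and Pik3r2 lower than the control in both treated libraries. At 12 weeks 30.8% of all genes stood at least as far from 0 as Pik3r1. For Pik3r2 this share was 23.4% at 8 weeks and 25.9% at 12 weeks. Per length, Pik3r1 was 71.5% of the pair in the control (interval 68.8% to 74.1%), 86.2% at 8 weeks (84.4% to 87.9%) and 81.8% at 12 weeks (79.5% to 83.9%).

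The catalytic genes stayed nearer to the control. Pik3ca had 49.2, 57.0 and 57.8 CPM, and Pik3cb had 18.0, 21.6 and 19.2 CPM, with Pik3ca at 68.4%, 67.6% and 70.4% of the pair per length. The ratio of summed regulatory to summed catalytic levels per length was 2.11 in the control, 2.56 after 8 weeks and 2.11 after 12. It was therefore higher in the 8-week library alone, while Pik3r1 by itself stood at 1.51, 2.21 and 1.73 times the summed catalytic level.

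Of the kinases below PI3-kinase, Pdpk1 and the AKT genes stood near the control. Pdpk1, the kinase that activates AKT, had 81.4, 75.8 and 86.2 CPM. Akt1 had 36.8, 40.8 and 36.7 CPM, and Akt2, the form tied most closely to glucose handling, had 63.4, 66.2 and 66.1 CPM. Across these 3 genes both comparisons with the control gave log2 ratios between -0.10 and 0.14. Per length the 2 AKT genes had nearly equal shares, with Akt1 at 50.3%, 51.8% and 49.1%.

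The GSK3 kinases, which AKT inhibits, were lower in both treated libraries by less than 1.5-fold. Gsk3a had 86.5, 68.3 and 69.8 CPM, with log2 ratios of -0.34 (interval -0.47 to -0.22) and -0.31 (-0.44 to -0.18). Gsk3b had 66.5, 60.0 and 57.8 CPM, with -0.15 (-0.28 to -0.01) and -0.20 (-0.34 to -0.06). Gsk3a shares 28.3% of its exon bases with 9130221H12Rik on the opposite strand, which had 817, 668 and 624 counts, and the sum of the 2 gave -0.35 and -0.33.

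The FOXO factors were higher in both treated libraries. Foxo1, which drives gluconeogenic genes when insulin is low (chr3:52268336-52353221, plus strand), had 47.7 CPM in the control library, 77.9 after 8 weeks and 85.8 after 12. Its log2 ratios were 0.70 (interval 0.57 to 0.85) and 0.84 (0.71 to 0.99), and 13.7% and 6.97% of all genes stood at least as far from 0. Foxo3, a related factor (chr10:42181841-42276755, minus strand), had 40.8, 68.7 and 52.2 CPM. Its log2 ratios were 0.74 (0.60 to 0.91) and 0.35 (0.20 to 0.52), and 12.2% and 33.8% of all genes stood at least as far from 0. The 2 were nearly equal in level per length in the control and at 8 weeks, with Foxo1 at 50.6% and 49.8% of the pair, and Foxo1 reached 58.9% at 12 weeks (interval 56.6% to 61.2%). Foxo4, from the list of other pathway genes, had 28.3, 29.3 and 26.6 CPM. Of the exon bases of Foxo1, 7.78% are shared with Gm20402, which had at most 93 counts.

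**Figure D3:**
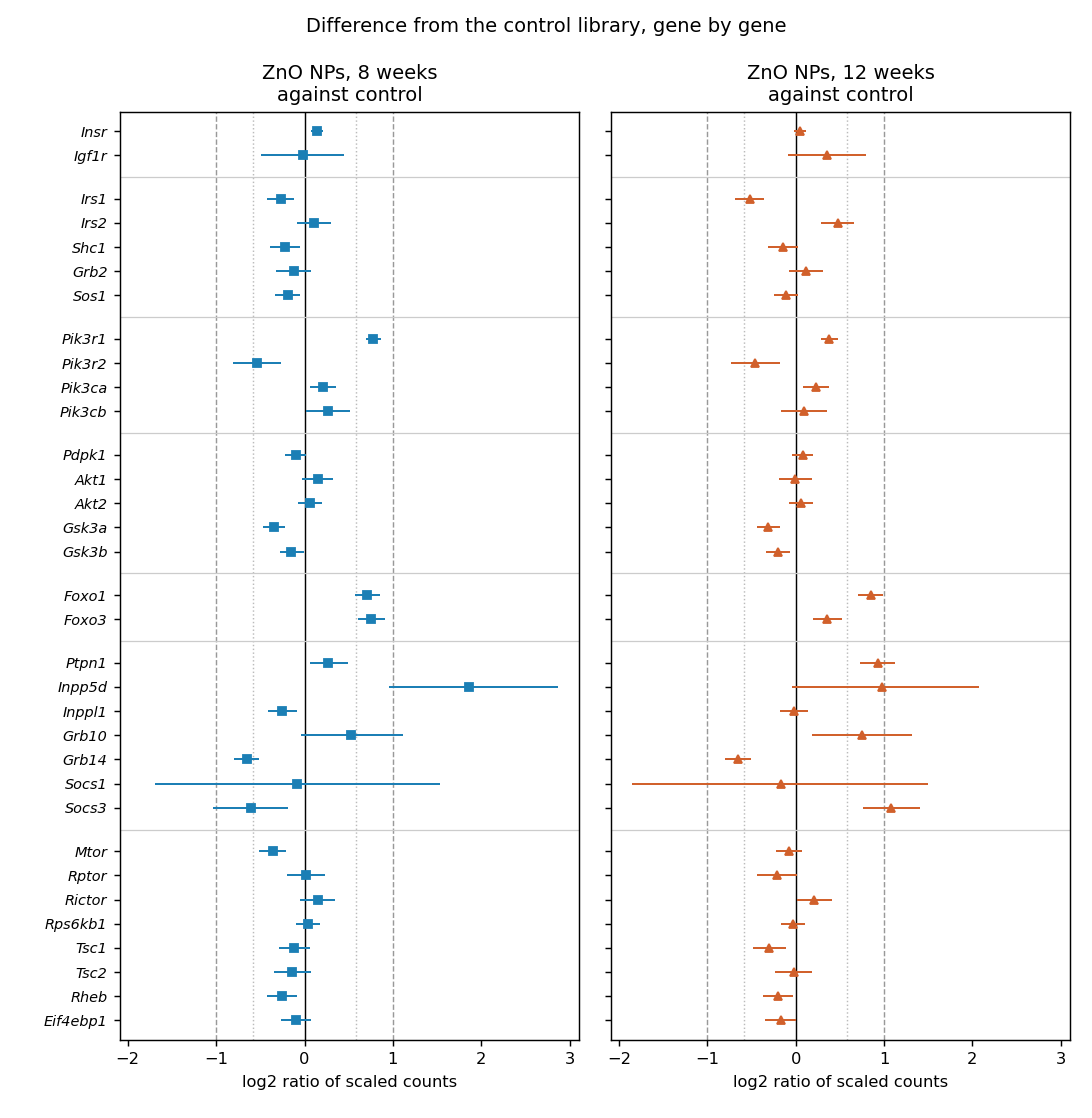
Log2 ratio of scaled counts to the control library (x axis) for each of the 33 genes at 8 weeks (left) and 12 weeks (right), with exact 95% intervals that cover counting error only. Dashed lines mark 2-fold and dotted lines 1.5-fold; Pik3r1, Foxo1 and Foxo3 lie to the right at 8 weeks, Foxo1, Ptpn1 and Socs3 at 12 weeks, and Grb14 to the left at both times.

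The inhibitors held the widest differences of the pathway and went both ways. Over the 6 that passed the filter, the median log2 ratio was 0.01 at 8 weeks, with a range of -0.64 to 1.20, and 0.58 at 12 weeks, with a range of -0.64 to 1.00. These are descriptions of 6 genes chosen by role.

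Grb14, an adaptor that blocks the kinase of the activated insulin receptor and is abundant in liver, was lower in both treated libraries. It lies at chr2:64912476-65024987 on the minus strand and had 73.1 CPM in the control library, 46.5 after 8 weeks and 46.6 after 12. Both log2 ratios were -0.64, with intervals of -0.80 to -0.51 and -0.80 to -0.50, and 15.7% and 12.8% of all genes stood at least as far from 0. The 2 treated libraries differed by 0.00 (-0.16 to 0.16). Per length, Grb14 stood at 0.57 of the level of Insr in the control and at 0.329 and 0.351 in the treated libraries. Grb10, a related adaptor, which is low in adult liver, had 3.24, 4.68 and 5.44 CPM, with log2 ratios of 0.42 (-0.04 to 1.11) and 0.60 (0.18 to 1.32). At 44 to 72 counts Grb10 is measured less well, and it made up 3.39%, 7.37% and 8.45% of the pair per length.

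Ptpn1, the tyrosine phosphatase that removes phosphate from the insulin receptor, was higher mainly in the 12-week library. It lies at chr2:167932057-167979385 on the plus strand and had 23.4 CPM in the control library, 28.2 after 8 weeks and 44.5 after 12. Its log2 ratio was 0.26 at 8 weeks (interval 0.06 to 0.49) and 0.90 at 12 weeks (0.73 to 1.13), where 5.74% of all genes stood at least as far from 0. Between the treated libraries it was 0.64 (0.47 to 0.85). Per length, Ptpn1 stood at 0.237 of Insr in the control, 0.259 after 8 weeks and 0.436 after 12. Among other tyrosine phosphatases that act on the receptor or its substrates, Ptpn2 had 13.2, 11.0 and 16.0 CPM, Ptprf 83.7, 90.0 and 84.3, and Ptpn11 87.1, 86.7 and 88.1.

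The SOCS genes encode feedback inhibitors that cytokine signals induce and that can target the docking proteins. Socs3, at chr11:117966079-117970047 on the minus strand, had 8.62 CPM in the control library, 5.65 after 8 weeks and 18.3 after 12. The 8-week library was thus the lowest and the 12-week library the highest. The log2 ratio was -0.53 at 8 weeks (interval -1.04 to -0.19), 1.00 at 12 weeks (0.76 to 1.41) and 1.53 between the treated libraries (1.32 to 2.07). Between the treated libraries 0.939% of all genes stood at least as far from 0. The call against the control sits on the threshold, since it was lost when counts were not rounded.

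Acute phase genes that interleukin-6 raises through STAT3 were, by their summed level of 11500, 12600 and 21200 CPM, also highest at 12 weeks. Of 20 such genes, all kept, 7 were 2-fold higher and 0 lower at 12 weeks (median 0.81), while at 8 weeks 6 were higher and 2 lower (median 0.33). Over all genes 3.11% were higher and 1.34% lower at 12 weeks, and 4.15% and 2.10% at 8 weeks. Between the treated libraries 7 of the 20 were higher at 12 weeks and 0 lower (median 0.78), beside 1.28% and 1.23% of all genes. By size these were led by the serum amyloid gene Saa2 (3.78), the lipocalin Lcn2 (2.86), the metalloreductase Steap4 (2.41) and Saa1 (2.23), the Saa genes being near-identical copies. Against the control the list was led by Orm2 (3.85), Saa1 (3.76), Saa2 (3.53) and Lcn2 (2.65) at 8 weeks and by Saa2 (7.31), Saa1 (5.99), Lcn2 (5.50) and Orm2 (4.52) at 12 weeks, and the 2 lower at 8 weeks were the kinase Pim1 (-1.78) and Hamp (-1.68), which encodes the iron hormone hepcidin. The 13 neutrophil markers summed to 4.94, 6.56 and 12.6 CPM, with 2, 3 and 1 of them at 0. Only 5 passed the filter, and all of these but Ccr2 were under 1 CPM in the control and passed only through a treated library. How far they stood from the control is therefore partly set by the filter. Itgam, the 1 called 2-fold higher at 12 weeks, had 9, 18 and 40 counts. The part of either list in the value of Socs3 was not tested.

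The sequence before the RefSeq start of Socs3 is shown because it holds a match to the STAT motif TTCNNNGAA, marked in capitals. The 165 bases run from 250 to 86 before that start (GRCm38.p6, minus strand). The deposited gene model starts further upstream, and in it these bases lie inside the gene, in the intron after its first exon, and end where the next exon begins.

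Socs3, chr11:117969452-117969616: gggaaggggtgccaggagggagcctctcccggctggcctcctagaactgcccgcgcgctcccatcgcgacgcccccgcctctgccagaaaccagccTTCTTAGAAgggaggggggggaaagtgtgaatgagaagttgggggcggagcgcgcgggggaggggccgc

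The match TTCTTAGAA lies at bases 154 to 146 before the start. Such a match was present in 7.02% of all 32851 promoters and in 3 of the 41 promoters of these genes, those of Socs3, Akt2 and Mtor. Akt2 and Mtor had log2 ratios of 0.06 and -0.08 at 12 weeks. The FOXO motif GTAAACA was found in 3.17% of all promoters and for Akt1 alone here. A CpG-rich start, with an observed to expected CpG ratio of at least 0.6 in these 250 bases, was found in 27 of the 41 promoters (65.9%) beside 34.0% of all.

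Of the 2 lipid phosphatases that remove the product of PI3-kinase, the one of blood cells was higher at 8 weeks. Inpp5d, found mainly in blood cells and macrophages, had 13, 50 and 25 counts, or 0.958, 3.49 and 1.89 CPM. Its log2 ratio was 1.20 at 8 weeks (interval 0.96 to 2.87) and 0.56 at 12 weeks (-0.04 to 2.07), and 4.22% of all genes stood at least as far from 0 at 8 weeks. Inppl1, the related phosphatase of most other cells, had 48.0, 40.3 and 47.2 CPM, with -0.24 (-0.41 to -0.09) and -0.02 (-0.18 to 0.14), and 18.8% of its exon bases are shared with Gm10602.

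Macrophage markers were higher in both treated libraries as well. Of 18 markers 17 were 2-fold higher at 8 weeks and 16 at 12 weeks, beside 4.15% and 3.11% of all genes, with medians of 1.81 and 1.45. Among them Fcgr1 and Tyrobp, at 0.147 and 0.516 CPM in the control, passed the filter only through the treated libraries. Per 1000 counts of these markers, Inpp5d had 7.98 counts in the control, 7.06 after 8 weeks and 4.96 after 12. These values rest on 13, 50 and 25 counts of Inpp5d, and no interval was computed for them. Lymphocyte markers summed to 11.6, 22.1 and 22.4 CPM, but without Ptprc, which all white blood cells express, the other 14 summed to 5.31, 5.72 and 5.59 CPM. The part of macrophages in the value of Inpp5d was not tested. In bulk liver RNA more cells of a type and more RNA per cell cannot be told apart. Other PI3-kinase genes known from blood cells, named here after their values were seen, had few counts. Pik3cd had 1.33, 2.93 and 2.79 CPM and Pik3r5 had 1.03, 2.79 and 4.83 CPM, while Pik3cg had 0.516, 0.698 and 0.68 CPM and did not pass the filter.

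**Figure D4:**
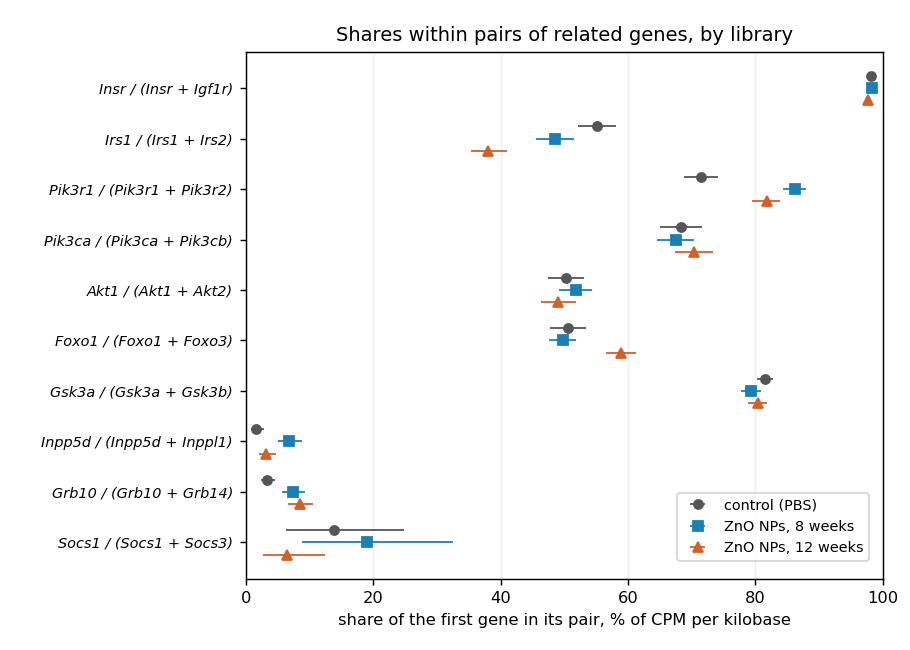
Share of the first gene of each of 10 pairs of related genes (x axis, percent of the pair's summed CPM per kilobase) in each library, with exact 95% binomial intervals rescaled by gene length. Irs1 is lower and Pik3r1 higher in both treated libraries than in the control, and the shares of the Akt, Gsk3 and Pik3ca pairs nearly coincide.

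Of the 10 pairs of related genes, the share moved by at least 10 percentage points between 2 libraries in 3. These were Irs1 and Irs2 (17.1 points), Pik3r1 and Pik3r2 (14.7) and Socs1 and Socs3 (12.6). In the last of these, Socs1 had at most 8 counts, and its intervals of 6.4% to 24.8% in the control and 2.65% to 12.5% at 12 weeks overlap. The other 7 moved by 0.62 to 9.17 points.

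The 8 genes of the mTOR complexes and their control were even as well. At each time 7 of 8 lay within 0.25 of the control on the log2 scale, beside 49.0% of all genes at 8 weeks and 52.1% at 12 weeks. Among genes with a mean of at least 10 CPM, which all 8 have, these shares were 55.0% and 57.8%. The exception at 8 weeks was Mtor, the kinase itself, with 59.1, 46.0 and 56.0 CPM and a log2 ratio of -0.36 (interval -0.51 to -0.21), which was -0.08 at 12 weeks. The exception at 12 weeks was Tsc1, with 39.7, 36.6 and 32.3 CPM and -0.29 (-0.48 to -0.11), while its partner Tsc2 had 28.9, 26.2 and 28.5 CPM. Tsc2 shares 9.60% of its exon bases with Pkd1. The ratio of Tsc1 to Tsc2 per length was 0.698, 0.709 and 0.576.

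Rptor, which defines mTOR complex 1, had 26.1, 26.4 and 22.6 CPM, and Rictor, which defines complex 2, had 29.6, 32.9 and 34.4 CPM. Per length, Rptor stood at 0.609 of Rictor in the control, 0.555 after 8 weeks and 0.454 after 12. Rheb, the GTPase that activates complex 1, had 44.7, 37.6 and 39.0 CPM. The complex 1 substrates Rps6kb1, a kinase of ribosomal protein S6, and Eif4ebp1, a repressor of translation, had 60.0, 61.7 and 58.7 CPM and 40.8, 38.1 and 36.2 CPM. At 12 weeks 7 of the 8 genes were below the control, where 51.0% of all genes were, and the median was -0.12. The values of Tsc2 (-0.02), Rps6kb1 (-0.03) and Mtor (-0.08) among them have intervals that include 0, and Tsc2 stood at 0.09 when summed with Pkd1.

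Further genes of the pathway came from 4 lists with 143 names, of which 141 were found and 130 kept. At 8 weeks 4 were 2-fold higher and 1 lower (median 0.05), where 4.15% and 2.10% of all genes were. At 12 weeks 5 were higher and 2 lower (median 0.02), where 3.11% and 1.34% of all genes were. These counts are near the background, and the genes named below are those past 2-fold. Among 25 kept genes of receptor input, Cish was higher at 8 weeks (2.45), and Cish (2.58) and Socs2 (1.46) at 12 weeks. Both are feedback inhibitors known to be induced by growth hormone through STAT5. Among 36 kept genes of PI3-kinase and AKT, the kinase Sgk2 was lower at both times, with 59.7, 14.0 and 18.0 CPM (-2.01 and -1.67). At 12 weeks the AKT-binding pseudokinase Trib3 (-1.17) was also lower and Pik3r5 (1.52) higher.

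Among 45 kept genes around mTOR, 3 were higher at 8 weeks, Lpin1 (2.10), Ddit4 (1.80) and Fnip2 (1.11). Lpin1 is a phosphatidate phosphatase under control of mTOR complex 1, Ddit4 an inhibitor of that complex, and Fnip2 a partner of folliculin at the lysosome. Lpin1 (1.52) and Ddit4 (1.16) were higher at 12 weeks too, Ddit4 with 1.11, 6.35 and 3.70 CPM. Of 24 RAS and MAP kinase genes 0 were called at either time (medians 0.10 and 0.06).

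Of the genes that insulin controls in liver, most of those it raises were higher and most of those it lowers were not called. Of 14 genes that FOXO1 raises and insulin lowers, a list that holds Insr and Irs2, 1 was higher at 8 weeks, the coactivator Ppargc1a (1.73), and 0 at 12 weeks (medians 0.10 and 0.05). The gluconeogenic gene G6pc had 615, 648 and 374 CPM and Igfbp1, a secreted binding protein, had 79.1, 93.9 and 134 CPM. Pdk4, which blocks pyruvate oxidation, had 32.6, 16.3 and 65.4 CPM and was called higher at 12 than at 8 weeks (log2 ratio 1.94). Of 11 genes that insulin raises, 8 were higher at 8 weeks and 7 at 12 weeks, and 0 lower (medians 1.72 and 1.34). Among them Pnpla3, at 0.295 CPM in the control, passed the filter only through the treated libraries. Over all genes 4.15% were called higher at 8 weeks and 3.11% at 12 weeks. Like the other lists, these 2 were chosen with earlier results of these data known. The lipogenic gene Thrsp had log2 ratios of 4.72 and 3.64, the desaturase Scd1 4.19 and 3.75, the elongase Elovl6 2.83 and 3.10, and the carboxylase Acaca 2.17 and 2.20. Thrsp (-1.07) and Srebf1 (-1.08), the factor that drives lipogenic genes, were 2-fold lower at 12 than at 8 weeks.

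**Figure D5:**
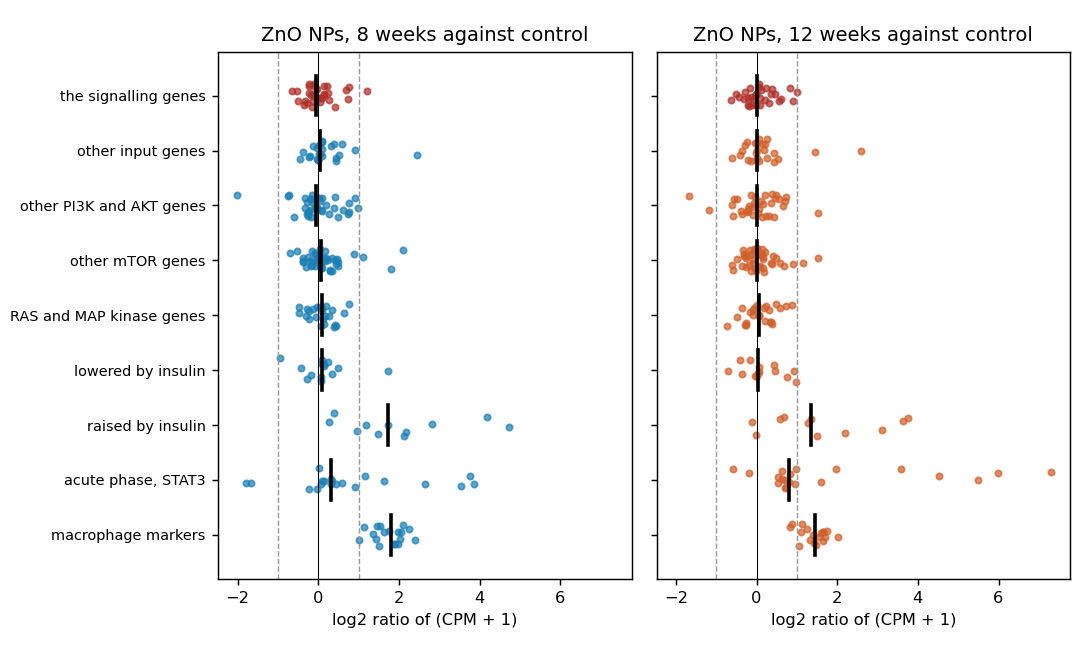
Log2 ratio of CPM + 1 to the control (x axis) for each kept gene (points) of the signalling set, 4 lists of other pathway genes, genes lowered and raised by insulin, acute phase genes and macrophage markers, at 8 weeks (left) and 12 weeks (right). Black bars are medians and dashed lines 2-fold; the 5 pathway groups centre near 0, and genes raised by insulin and macrophage markers have medians of 1.34 or more at both times.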

How the data were processed

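Total liver RNA of CD-1 mice was sequenced from TruSeq libraries, 1 per group, per the labels' protocols. For each gene the authors deposited an estimated count, not normalized, and a length in bases, per the file headers. Builds mm9 and mm10 and the tools Cufflinks 2.2.1.0 and TopHat2 2.1.0 are listed, with no role, per the submitters' processing notes. Which program counted reads, and whether it used strand, is not given in the sources used here. Of the 33 genes, 29 had the start and end of GENCODE M21 (GRCm38) and 33 the same place and strand, so coordinates are mm10.

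Estimated counts were rounded and scaled by TMM (edgeR 4.0.16, R 4.3.3; factors 0.997, 1.005 and 0.999). Genes with at least 1 CPM in 1 library were kept, 1 CPM was added before log2, which understates low genes, and calls were made at 2-fold. Intervals are exact (Clopper-Pearson) and cover counting error only, since amplified reads are not independent molecules. The design fixed no test, because each group has 1 library. Every signalling gene is named; of other lists, genes past 2-fold, up to 4 by size, or else the most abundant, and some genes of interest were added after their values were seen. Some genes of these lists are not reported here. The members and lists were chosen with earlier results of these data known. Alternatives were other scalings (DESeq2 1.42.0 size factors, total counts), pseudocounts, filters and thresholds. Promoters are from RefSeq (GRCm38.p6), which matched 31 of 33 genes.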

Additional observations from a re-analysis of the deposited data

Results flagged for a closer look

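Socs3 was the 1 signalling gene whose counting intervals lay on opposite sides of the control at the 2 times. Its log2 ratio to the control was -0.53 at 8 weeks and 1.00 at 12 weeks, a difference of 1.53 between the treated libraries. With 1 library at each time this difference was not tested.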

How the results depend on the processing

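No paired analysis was possible because each group has 1 library. With 5 CPM added in place of 1, the count of genes at least 2-fold higher was 0 at 8 weeks and 0 at 12 weeks, in place of 1 and 1. Keeping only genes at 1 CPM in all 3 libraries removed Inpp5d and left 0 at 8 weeks. Without rounding, Socs3 fell just under 2-fold and the count at 12 weeks was 0. At 1.5-fold, 4 were higher and 1 lower at 8 weeks, 4 and 1 at 12 weeks, and 2 and 1 between the treated libraries. Scaling by DESeq2 size factors or total counts moved no count of these genes and moved the median of all genes by at most 0.01. Over all genes, the 2-fold counts of 912, 650 and 366 in the 3 comparisons became 429, 259 and 161 with 5 CPM added; between the treated libraries it was 563 with 0.5 CPM added and 228 with 1 CPM in all 3 libraries. The median of the 32 genes stayed between -0.10 and -0.03 at 8 weeks and between -0.01 and 0.03 at 12 weeks, so its sign at 12 weeks is not settled. Filters cannot move a single gene's ratio; under the other settings 493 of 495 recomputed ratios lay within their counting interval, and 1 changed sign, Tsc2 at 12 weeks (-0.02, and 0.09 summed with Pkd1). The 2 outside, with 5 CPM added, were Inpp5d at 8 weeks (0.51) and Socs3 between the treated libraries (1.13). Shares within pairs shifted where gene lengths differ, but Irs1 still went from 64.0% to 47.1% of counts. Sums with overlapping genes, marker sums without Alb or Ptprc and the background at 10 CPM were added after seeing the data. Depth limits Socs1, Inpp5d, Grb10 and Igf1r.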
